A study of Mus musculus with 6 samples.

Results

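The core cardiac transcription factors are 10 DNA-binding proteins that specify and maintain heart muscle: the zinc-finger factors Gata4 and Gata6, the homeobox factor Nkx2-5, the T-box factors Tbx5 and Tbx20, the MADS-box factors Mef2a and Mef2c, the basic helix-loop-helix factor Hand2, and the Iroquois homeobox factors Irx3 and Irx4. They were chosen by name, as genes known for this role, and all 10 were among the 27179 genes of the bulk count table and the 14041 tested. Each was followed across 4 bulk RNA-seq libraries and 2 single-cell chips made from C57BL/6 mouse heart cells in culture. The bulk libraries came from newborn cardiomyocytes, called immature (imCM), that had been co-cultured with neonatal cardiac fibroblasts (imCM-NF, 2 libraries) or with adult cardiac fibroblasts (imCM-AF, 2 libraries), so that every library shares the strain, the newborn cardiomyocytes and the presence of fibroblasts. Total counts were 9278910 and 12088600 in imCM-NF and 10766100 and 11790300 in imCM-AF.

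On the chips, 1 of cardiomyocyte wells and 1 of fibroblast wells, each well held 1 captured cell and had a name. The cardiomyocytes chip had wells named AFNCM, NFNCM and NCM0, and the fibroblasts chip had wells named AF, NF, AF0 and NF0. By these names AFNCM and NFNCM were taken as cardiomyocytes cultured with adult or neonatal fibroblasts, AF and NF as adult and neonatal fibroblasts, and what the 0 stands for is not given in the sources used here. Of 2462 named wells 2247 were kept: 515 AFNCM, 523 NFNCM, 258 NCM0, 219 AF, 256 NF, 170 AF0 and 306 NF0. As models the cultures have limits that bear on every value: the fibroblasts had been passaged before use, more adult than neonatal fibroblasts were plated for each cardiomyocyte, and both cell kinds had to be separated again before sequencing.

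Gata4, Nkx2-5, Tbx5, Mef2c and Hand2 are textbook members of a network in which the factors bind near one another at enhancers of muscle genes and activate each other's genes. Gata6 and Tbx20 are also used outside heart muscle, in the epicardium, valves, endothelium and connective tissue cells. Irx4 marks ventricular muscle from early in development, and Irx3 is known for its part in the ventricular conduction system. Tbx5 is strongest in atrial muscle after birth, and Mef2 factors drive genes of the contractile apparatus.

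The sequence just upstream of the start site is shown for 4 members whose values the results turn on: Irx4, Irx3 and Nkx2-5, which separated cardiomyocytes from fibroblasts most widely, and Hand2, which did so little and whose window held the most motif matches among these 4. The RefSeq table of promoters (GRCm38.p6) held 7 of the 10 members, and Gata4, Gata6 and Tbx5 were not in it. Each line gives 300 bases, 250 before and 50 after the start site, 5′ to 3′ on the strand of the gene. Capitals mark matches, on either strand, to the letters GATAA (GATA core), AAGTG (NK2 homeobox core), GGTGTGA (T-box core), CATCTG (an E-box of HAND factors), TATAAA (core promoter box) or TATTTNTA (MEF2 core).
Irx4, chr13:73260247-73260546, plus strand: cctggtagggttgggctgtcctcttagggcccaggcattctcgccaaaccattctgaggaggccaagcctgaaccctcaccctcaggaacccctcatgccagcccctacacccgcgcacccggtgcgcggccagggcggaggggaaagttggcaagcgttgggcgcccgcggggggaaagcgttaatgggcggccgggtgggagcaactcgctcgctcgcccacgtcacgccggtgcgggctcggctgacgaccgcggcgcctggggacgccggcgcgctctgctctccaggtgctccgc
Irx3, chr8:91801605-91801904, minus strand: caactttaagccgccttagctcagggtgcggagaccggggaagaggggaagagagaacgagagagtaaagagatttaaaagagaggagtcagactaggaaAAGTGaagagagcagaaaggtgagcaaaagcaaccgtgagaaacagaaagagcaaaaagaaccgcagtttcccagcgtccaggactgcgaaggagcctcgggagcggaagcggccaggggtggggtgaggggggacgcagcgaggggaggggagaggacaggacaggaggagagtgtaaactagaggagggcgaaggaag
Nkx2-5, chr17:26841516-26841815, minus strand: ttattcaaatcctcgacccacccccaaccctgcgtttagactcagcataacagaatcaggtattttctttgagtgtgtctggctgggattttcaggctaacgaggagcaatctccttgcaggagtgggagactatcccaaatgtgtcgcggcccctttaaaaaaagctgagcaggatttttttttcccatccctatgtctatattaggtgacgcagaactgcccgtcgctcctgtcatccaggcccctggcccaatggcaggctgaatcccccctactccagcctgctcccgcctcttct
Hand2, chr8:57320733-57321032, plus strand: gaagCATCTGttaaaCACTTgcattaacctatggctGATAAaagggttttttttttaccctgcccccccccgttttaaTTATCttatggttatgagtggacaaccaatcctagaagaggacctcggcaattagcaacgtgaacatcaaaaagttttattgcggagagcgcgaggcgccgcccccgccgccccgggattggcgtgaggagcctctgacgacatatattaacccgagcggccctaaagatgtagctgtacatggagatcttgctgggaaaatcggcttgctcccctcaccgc
No capital stands in the Irx4 and Nkx2-5 windows. The Irx3 window held 1 match, to AAGTG. The Hand2 window held 2 matches to GATAA, 1 to AAGTG and 1 to CATCTG. Over the 32851 promoter windows of the table, GATAA was present in 25.4%, AAGTG in 46.4%, GGTGTGA in 3.98%, CATCTG in 17.2%, TATAAA in 13.6% and TATTTNTA in 5.99%. The matches are descriptions of letters in these windows and not of bound sites.

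In bulk, all 10 factors were expressed in all 4 libraries, and their levels were set side by side as RPKM (reads per kilobase of exon, scaled to 1000000 counts). Gata4 had the highest mean over the 4 libraries, 78.7 ± 8.18 RPKM (SD, n = 4), and Nkx2-5 followed at 73.0 ± 9.77. Hand2 stood at 40.5 ± 0.803, Tbx20 at 30.1 ± 2.43, Gata6 at 24.9 ± 2.68 and Irx3 at 21.9 ± 3.93. Irx4 was at 15.4 ± 4.36, Tbx5 at 9.23 ± 2.04, Mef2a at 5.64 ± 0.61 and Mef2c at 3.57 ± 0.766. Library ranges overlapped between the neighbours Gata4 and Nkx2-5, Tbx20 and Gata6, Gata6 and Irx3, Irx3 and Irx4, and Irx4 and Tbx5. Within a library, Gata4 was above Nkx2-5, Irx3 above Irx4 and Irx4 above Tbx5 in all 4 libraries. Gata6 and Irx3 changed places, with group means of 27.0 and 18.6 RPKM in imCM-NF and 22.7 and 25.2 RPKM in imCM-AF. Hand2 was apart from both of its neighbours in the order, and Mef2a from Mef2c.

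The bulk comparison asked whether imCMs kept with adult fibroblasts differed from those kept with neonatal fibroblasts. Irx4 rose, Irx3, Mef2c and Tbx5 passed the test on adjusted p with changes under the fold threshold, and the other 6 did not pass. Levels in CPM (counts scaled to 1000000 per library, TMM-adjusted) were higher in imCM-AF for 9 of the 10 factors and lower for Gata6. A gene was called when its adjusted p from the edgeR quasi-likelihood test (Benjamini-Hochberg over 14041 genes) was under 0.05 and its absolute log2 fold change over 0.58. By this rule 1 of 10 factors was called, where 11.1% of all tested genes were called, 6.15% higher and 4.99% lower. On adjusted p alone, 4 of 10 were higher and 0 lower, beside 12.5% and 14.5% of all genes. The median log2 fold change of the 10 was 0.26 and that of all tested genes 0.0011. The labels do not say whether libraries came from separate cultures, so these p-values measure only the spread between these libraries.

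Irx4 had the widest change of the 10 and Irx3 the next lowest adjusted p. Irx4 measured 36.9 and 25.4 CPM with neonatal fibroblasts and 48.0 and 49.99 CPM with adult ones, so both imCM-AF libraries were above both imCM-NF libraries, and the imCM-NF libraries were far apart. Its log2 fold change was 0.67 ± 0.13 (SE; 95% interval 0.39 to 0.95; adjusted p = 0.00144, edgeR), a 1.59-fold difference. The call rested on 1 library: without imCM-NF replicate 2, the lowest, the log2 fold change was 0.42 with an adjusted p of 0.0428 (edgeR), below the fold threshold, and over other scalings, filters, tools, the replicate block and each library left out the adjusted p ran from 2.05e-07 to 0.0428. Irx3 measured 53.9 and 48.8 CPM with neonatal and 67.8 and 71.5 CPM with adult fibroblasts, again with no overlap. Its log2 fold change was 0.44 ± 0.10 (SE; interval 0.24 to 0.65; adjusted p = 0.00298, edgeR), and the adjusted p stayed under 0.05 in each of those fits (highest 0.0467).

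Mef2c, which drives muscle gene programmes, measured 51.6 and 43.0 CPM with neonatal fibroblasts. With adult fibroblasts it measured 58.3 and 71.5 CPM. Its log2 fold change was 0.46 ± 0.12 (SE; interval 0.22 to 0.71; adjusted p = 0.00677, edgeR). Tbx5, the T-box factor of atrial and conduction programmes, measured 38.7 and 34.3 CPM with neonatal and 43.3 and 56.4 CPM with adult fibroblasts, with a log2 fold change of 0.46 ± 0.12 (SE; interval 0.20 to 0.71; adjusted p = 0.0106, edgeR). For both factors imCM-AF replicate 2 was the high library. Without it the log2 fold change of Mef2c was 0.31 (adjusted p = 0.130, edgeR) and that of Tbx5 0.26 (adjusted p = 0.268, edgeR). Without imCM-NF replicate 2 the adjusted p was 0.136 for Mef2c and 0.157 for Tbx5 (edgeR), and without imCM-AF replicate 1 both were called, at 0.62 and 0.65. Mef2c was also called without imCM-NF replicate 1, at 0.60.

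Nkx2-5, the homeobox factor of the myocardial lineage, measured 124 and 102 CPM with neonatal and 135 and 140 CPM with adult fibroblasts, a log2 fold change of 0.29 ± 0.10 (SE; interval 0.07 to 0.51) whose adjusted p was 0.0501 (edgeR). It lay under 0.05 with other scalings and filters and with limma-voom (0.0294 to 0.0491), and over all of those fits it ran from 0.01004 to 0.313. Mef2a, the more widely expressed MEF2 factor, had 81.5 and 70.6 CPM against 88.9 and 90.1 CPM in imCM-AF (log2 fold change 0.24, adjusted p = 0.0794, edgeR). Gata4, a zinc-finger activator of contractile and natriuretic peptide genes, had 299 and 265 CPM against 333 and 331 CPM (0.23, adjusted p = 0.112, edgeR). Tbx20, a T-box factor of chamber muscle and valves, had 327 and 348 CPM against 378 and 392 CPM (0.19, adjusted p = 0.200, edgeR). Hand2, a helix-loop-helix factor of ventricle and outflow tract, had 93.2 and 94.0 CPM against 96.3 and 97.2 CPM, and the 95% interval of its log2 fold change, 0.05, ran from -0.14 to 0.24. None of these 5 passed the test.

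Gata6, which overlaps with Gata4 in function and is also used outside muscle, was the one factor with lower values in imCM-AF: 181 and 171 CPM in imCM-NF against 142 and 154 CPM in imCM-AF. The log2 fold change was -0.25 ± 0.10 (SE; interval -0.46 to -0.04) and did not pass the test (adjusted p = 0.0698, edgeR). The RPKM of Gata4 was 2.76 and 2.59 times that of Gata6 in imCM-NF and 3.92 and 3.57 times in imCM-AF. For each of the 10 factors the groups did not overlap, which was also true of 66.0% of all tested genes. Hand2 shares 19.6% of its exon bases with the antisense gene Hand2os1, and Irx3 4.49% with Irx3os, Mef2a 2.06% with Lysmd4 and Gata6 1.43% with 1010001N08Rik. The kit did not mark strand, so reads from these shared stretches cannot be told apart.

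**Figure D1:**
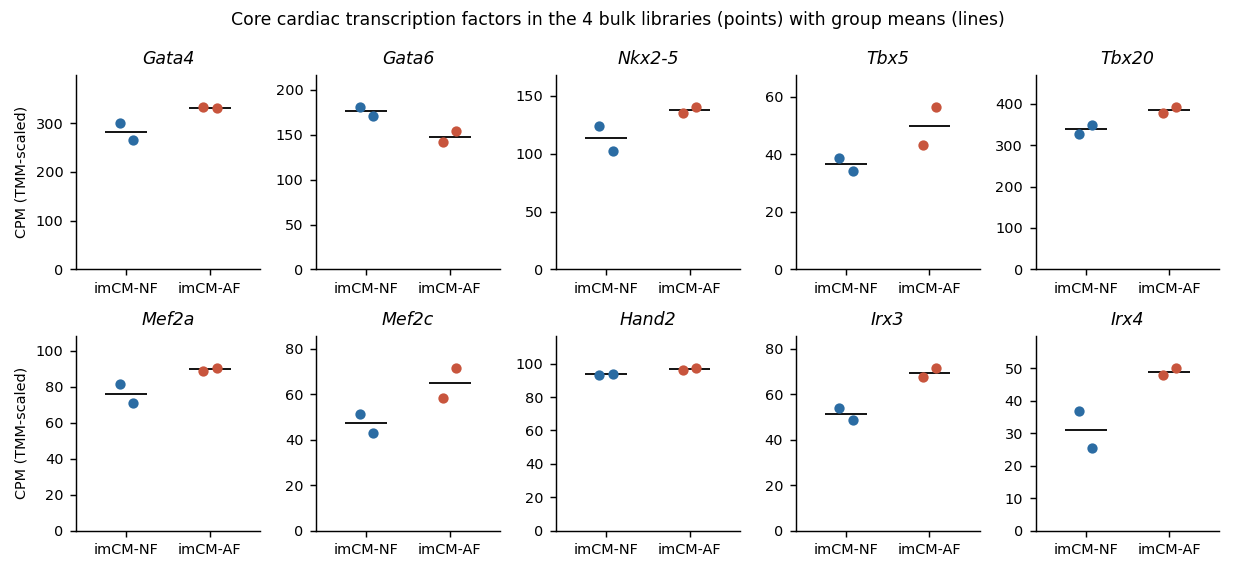
TMM-scaled CPM of the 10 factors (1 panel each, axes from 0) in the 4 bulk libraries, with a point for each library and a line at each group mean. Both imCM-AF libraries lie above both imCM-NF libraries for 9 factors and below them for Gata6, and the change relative to the level is widest for Irx4 (1.59-fold).

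Markers of other cells moved with these values in bulk. Summed over 10 fibroblast markers, imCM-NF libraries had 15517 and 17004 CPM and imCM-AF libraries 10798 and 8549 CPM, all 10 markers were lower in imCM-AF and 6 were called. The 8 endothelial markers had sums of 915 and 948 CPM with neonatal and 617 and 584 CPM with adult fibroblasts, with 5 called lower. The 10 cardiomyocyte markers had sums of 39996 and 29190 CPM with neonatal and 37660 and 41186 CPM with adult fibroblasts, and 2 of them were called higher. Their part in the values of the 10 factors was not tested, and in bulk RNA fewer cells of a type and less RNA per cell cannot be told apart.

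Among 40 other cardiac transcription factors and cofactors, 34 were tested, 21 with higher and 13 with lower values in imCM-AF, and 9 were higher and 3 lower on adjusted p alone. Called higher were Irx2 (log2 fold change 0.73, adjusted p = 0.00956, edgeR), the muscle methyltransferase Smyd1 (0.59, adjusted p = 0.00232), the homeobox factor Prox1 (0.64, adjusted p = 0.00143) and the zinc-finger factor Casz1 (0.89, adjusted p = 4.37e-05). Tcf21, a factor of epicardium and fibroblasts, was called lower (-0.89, adjusted p = 5.37e-05, edgeR) and is also on the list of fibroblast markers. Of the relatives of the 10, Irx5 (0.44, adjusted p = 0.00941, edgeR), Mef2d (0.44, adjusted p = 0.0042), Tbx3 (0.39, adjusted p = 0.0394) and the GATA partner Zfpm2 (0.35, adjusted p = 0.0129) passed on adjusted p alone. Irx1 (0.52, adjusted p = 0.0938), Hand1 (0.72, adjusted p = 0.131), Zfpm1 (0.12, adjusted p = 0.334), Tbx2 (-0.36, adjusted p = 0.267) and Tbx18 (-0.08, adjusted p = 0.575) did not pass. Gata5, Nkx2-6, Tbx1, Mef2b, Irx6 and Isl1 did not pass the filter on low counts. The median log2 fold change of this list was 0.12.

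Of 32 genes known as targets of these factors, 31 were tested, with 27 higher and 4 lower values in imCM-AF. Their median log2 fold change was 0.28. Over all 14041 tested genes, 7035 had higher and 7006 lower values. The groups did not overlap for 16 of the 31 targets, where 66.0% of all tested genes did not. On adjusted p alone 7 targets were higher and 1 lower, beside 12.5% and 14.5% of all genes. Summed over the targets, imCM-NF libraries had 67923 and 49733 CPM and imCM-AF libraries 63157 and 69175 CPM. The imCM-NF libraries lay far apart, with replicate 2 the lowest of all. All cardiomyocyte markers used above except Cox8b are also on this list, Ckmt2 and Ttn among them, so both counts share genes. Called higher were the mitochondrial creatine kinase Ckmt2 (0.70, adjusted p = 0.000412, edgeR), the calcium pump inhibitor Pln (0.69, adjusted p = 0.00502), the giant sarcomere protein Ttn (0.62, adjusted p = 0.0128), the trabecular growth factor Bmp10 (0.88, adjusted p = 0.0206) and the stretch-responsive Ankrd1 (0.79, adjusted p = 0.00672). Nppa, the atrial natriuretic peptide and a target of Gata4, Nkx2-5 and Tbx5, was called lower (-0.87, adjusted p = 0.00751, edgeR). Myh6 (0.35, adjusted p = 0.348), Atp2a2 (0.46, adjusted p = 0.105), Tnnt2 (0.04, adjusted p = 0.914) and Gja5 (0.02, adjusted p = 0.881) did not pass.

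In single cells the question was in which cells each factor was found. Cells were grouped into 13 clusters computed without the 10 factors and named from fixed marker lists. Clusters 1, 7 and 8 were cardiomyocyte-like (758 cells), clusters 2, 3 and 5 fibroblast-like (778 cells), clusters 10 and 11 endothelial-like (70 and 44 cells), cluster 12 atrial-like (44 cells) and cluster 13 macrophage-like (38 cells). Cluster 2 had 5 of 10 fibroblast and 4 of 8 smooth muscle markers high, and the fibroblast marker Postn among its leading genes decided its name. Clusters 4, 6 and 9 were left unnamed. Cluster 4, of low UMI totals, had 7 of 10 cardiomyocyte markers high and held 26.6% of AFNCM and 13.4% of NFNCM wells. Cluster 6 had 6 of 8 epicardial markers high. Cluster 6 was led by Upk1b and held 166 of the 170 AF0 wells, and the unnamed clusters held 27.4% of AFNCM, 14.9% of NFNCM, 6.98% of NCM0, 17.4% of AF, 13.7% of NF, 12.7% of NF0 and 97.6% of AF0 wells. The chips were 1 library each and shared 269 well barcodes, so levels are given as summed UMIs scaled to 1000000 (CPM) with exact Poisson 95% intervals, and shares with exact binomial ones, which cover counting error only, and no test was made. The 5 negative-control wells of each chip held 1 UMI of the 10 factors on the cardiomyocytes chip and 3 on the fibroblasts chip.

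Over all kept wells of a name, the cardiomyocytes chip carried Nkx2-5, Irx3 and Irx4 and the fibroblasts chip nearly none. Nkx2-5 was at 65.4 CPM in AFNCM, 91.7 in NFNCM and 92.9 in NCM0 wells, and between 0.357 (AF0) and 8.43 (NF) on the fibroblasts chip. Irx3 was at 64.4, 114 and 73.9 CPM in AFNCM, NFNCM and NCM0 and between 5.60 and 8.72 in fibroblast wells, and Irx4 at 10.9, 11.5 and 10.1 CPM and between 0.228 and 0.739. Mef2a (304, 353 and 387 CPM against 120 to 182) and Mef2c (101, 97.3 and 115 against 6.32 to 32.5) were likewise higher on the cardiomyocytes chip under every name, as were Tbx5 (12.5, 11.5 and 23.2 against 1.14 to 5.34) and, by less, Gata4 (64.4, 77.6 and 90.7 against 35.4 to 61.9).
Gata6, Tbx20 and Hand2 had no such split. Gata6 was at 52.9, 75.3 and 68.9 CPM in AFNCM, NFNCM and NCM0 and at 65.2 (AF0) to 118 (NF0) in fibroblast wells. Tbx20 was at 92.2, 170 and 269 CPM on the cardiomyocytes chip and 118 (AF) to 276 (NF0) on the fibroblasts chip. Hand2 was at 53.2 to 64.4 CPM on the former and 44.5 to 68.1 on the latter. The chips were separate libraries, so chip and cell kind cannot be told apart in these values.

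**Figure D2:**
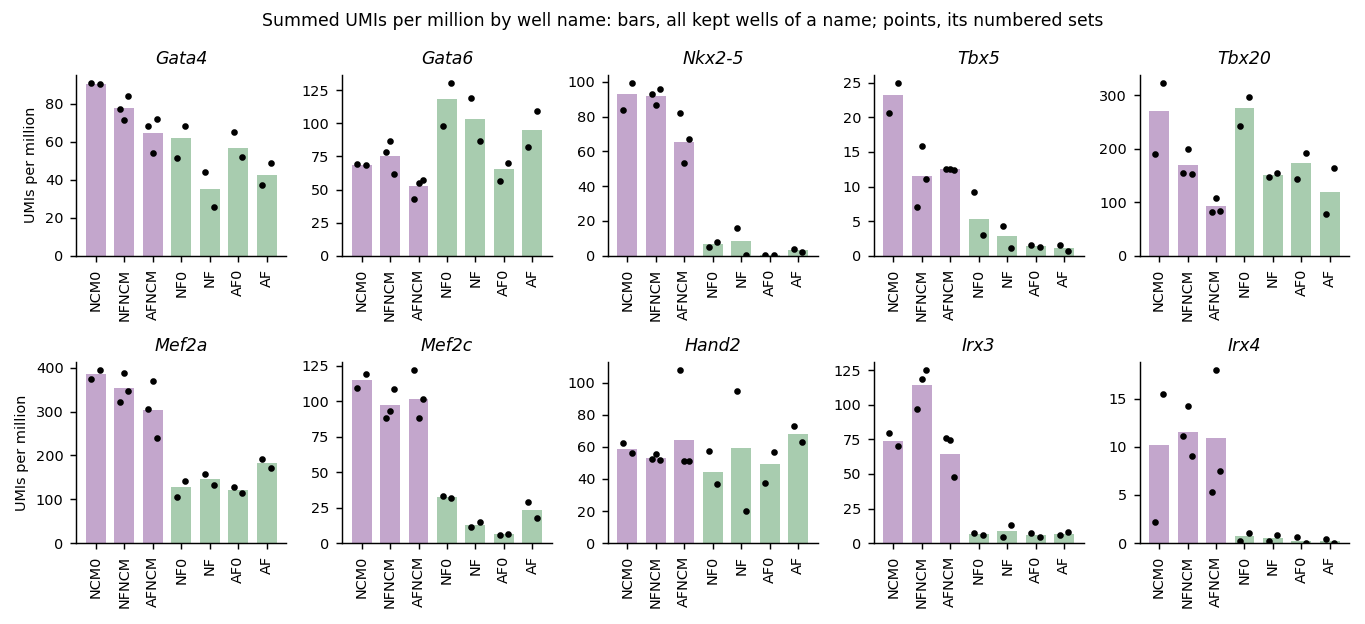
Summed UMIs per well name in CPM for each factor (1 panel each, axes from 0), with bars for all kept wells of a name and points for its numbered sets of wells. Nkx2-5, Irx3 and Irx4 are near 0 in all fibroblast wells (NF0, NF, AF0, AF). For Gata6, Tbx20 and Hand2 the ranges over the names of the fibroblasts chip overlap those of the cardiomyocytes chip.

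Of the 10 factors, 8 had higher levels in cardiomyocyte-like than in fibroblast-like cells and 2 lower, with no interval overlapping. Of 39 other cardiac factors with counts, 15 were higher, 15 lower and 9 had overlapping intervals. The share over all genes was not computed for this comparison, and the intervals cover counting error only. Among the 10, Irx4, Nkx2-5 and Irx3 separated the cell kinds most, and the Iroquois relative Irx5 (40.9 against 0.976 CPM) did so as well. Irx4 had 14.9 CPM in cardiomyocyte-like cells (334 UMIs) and 0.370 in fibroblast-like cells (11 UMIs), a 40.3-fold difference (log2 5.33, interval 4.47 to 6.35). Nkx2-5 had 103 against 4.27 CPM, 24.1-fold (log2 4.59, interval 4.33 to 4.86), and Irx3 122 against 5.89, 20.8-fold (log2 4.38, interval 4.16 to 4.61). The 778 fibroblast-like cells held 127 UMIs of Nkx2-5 and 175 of Irx3 in all.

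Mef2c was 5.87-fold higher in cardiomyocyte-like cells, at 127 against 21.7 CPM, and Mef2a 2.68-fold, at 403 against 151. Gata4 (96.4 against 49.7) and Tbx5 (9.82 against 5.11) were 1.94-fold and 1.92-fold higher. Hand2, at 64.2 against 46.2 CPM, was 1.39-fold higher, and its highest level was in endothelial-like cluster 10, at 184. Tbx20 and Gata6 went the other way: Tbx20 had 167 CPM in cardiomyocyte-like and 198 in fibroblast-like cells, and Gata6 63.3 and 105, a 1.66-fold difference. With no upper limit on the UMIs of a well the order of Tbx20 turned, with a log2 ratio of 0.22 in place of -0.25. These are pooled levels, and the clusters of a class differed. Tbx20 had 187, 222 and 73.4 CPM in clusters 1, 7 and 8, and 269, 135 and 177 in clusters 2, 3 and 5. Hand2 had 64.0, 45.7 and 81.5 against 38.6, 51.7 and 50.6, so for both the order depended on the cluster. Gata6 had 61.7, 87.3 and 44.6 against 124, 89.7 and 97.1, lower in each cardiomyocyte-like cluster.

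**Figure D3:**
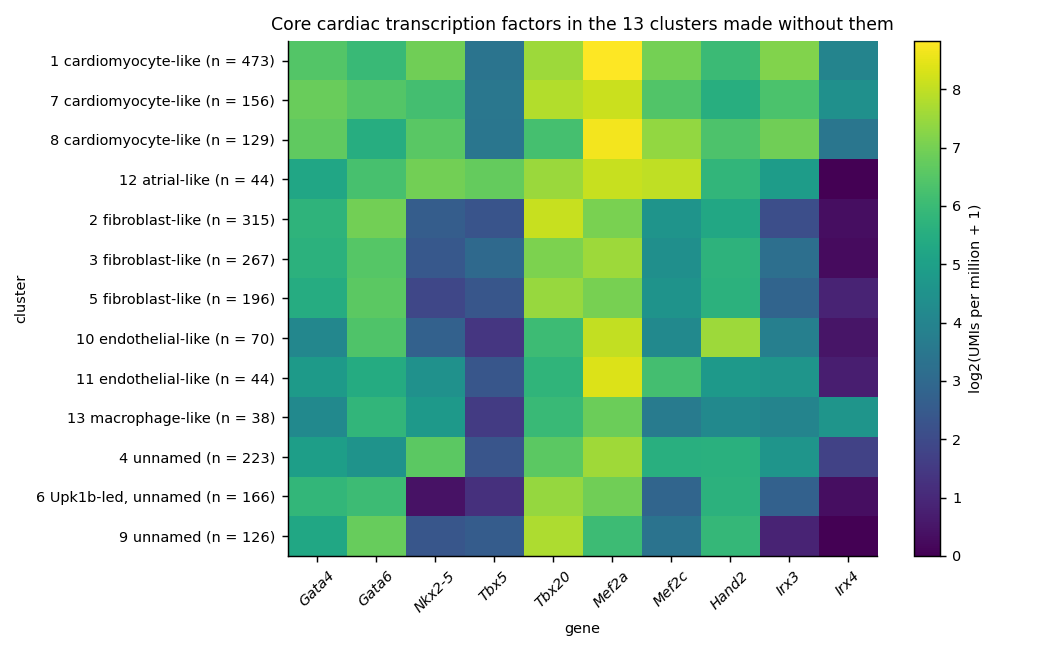
Level of each factor (columns) in each of the 13 clusters (rows, with the number of cells), as log2 of summed UMIs in CPM plus 1. Nkx2-5, Irx3 and Irx4 are dark in the fibroblast-like rows and bright or mid-range in the cardiomyocyte-like rows, Tbx20 and Gata6 are bright in both, and Tbx5 is brightest in the atrial-like row.

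The share of cells with at least 1 UMI was compared at equal depth, because median UMIs were 22924 in cardiomyocyte-like and 28587 in fibroblast-like cells. Cells were thinned to 5000 UMIs, which left 673 of 758 and 743 of 778 cells. Nkx2-5 was then found in 28.5% of cardiomyocyte-like and 2.02% of fibroblast-like cells, Irx3 in 33.6% and 3.10%, and Irx4 in 4.16% and 0.135%. Macrophage-like cells, 35 after thinning, gave 5.71% for Nkx2-5 (interval 0.70% to 19.2%). Irx3 and Irx4 were each at 2.86% there (interval 0.07% to 14.9%). The fibroblast-like shares of these 3 lay within these wide intervals, and so few cells do not set a background. In CPM, Nkx2-5 was at 26.2 (interval 18.9 to 35.4) in macrophage-like and 4.27 in fibroblast-like cells. Of the 38 macrophage-like cells, 19 were on the cardiomyocytes chip. The Irx4 UMIs of macrophage-like cells all came from 1 of 38 cells.
Mef2a was found in 70.9% of cardiomyocyte-like and 38.9% of fibroblast-like cells (macrophage-like 40.0%) and Mef2c in 33.4% and 7.27% (macrophage-like 8.57%). Gata4 was found in 26.9% and 17.2% (macrophage-like 5.71%), and Hand2 in 22.1% and 12.8% (macrophage-like 8.57%). Tbx20 was found in 40.4% and 44.0% (macrophage-like 7 of 35 cells), and Gata6 in 20.5% and 26.4% (macrophage-like 11.4%). Tbx5 was rare in both, at 3.86% and 1.75%, with 0 of 35 macrophage-like cells. Endothelial-like cells, 106 after thinning, gave 58.5% for Mef2a, 12.3% for Mef2c and 6.60% for Gata4. They gave 21.7% for Tbx20, 17.9% for Gata6 and 1.89% for Tbx5. Their Hand2 share, 23.6% (interval 15.9% to 32.8%), was no lower than the cardiomyocyte-like one. The fibroblast-like shares of Mef2a and Mef2c were no higher than in macrophage-like cells. For Gata4, Hand2 and Gata6 the intervals of the fibroblast-like and macrophage-like shares overlapped. Macrophage-like cells stand here as another cell class and not as cells known to lack these factors. The Tbx20 share was above that of macrophage-like cells with separate intervals (40.4% to 47.7% against 8.44% to 36.9%). Without thinning the shares were 53.0% and 4.88% for Nkx2-5, 56.2% and 7.07% for Irx3, 11.6% and 0.771% for Irx4, 65.0% and 65.8% for Tbx20, and 36.3% and 51.0% for Gata6.

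**Figure D4:**
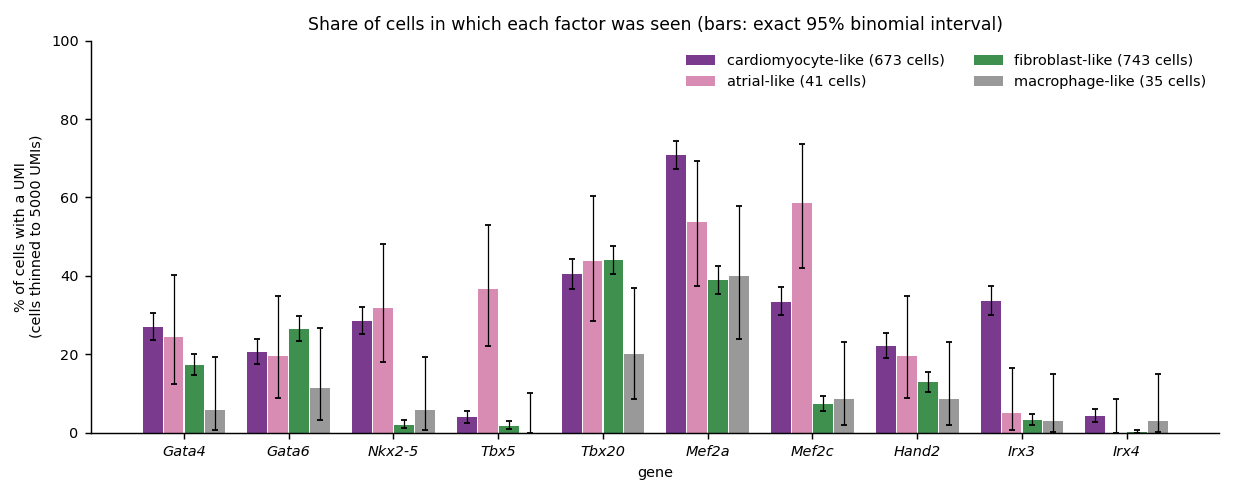
Percent of cells with at least 1 UMI of each factor after thinning to 5000 UMIs, for cell classes named from marker genes, with exact binomial 95% intervals. Nkx2-5, Irx3 and Mef2c stand far higher in cardiomyocyte-like than in fibroblast-like cells, and Tbx20 and Gata6 are at least as frequent in fibroblast-like cells. Endothelial-like cells are not shown.

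The atrial-like cluster had its own pattern. In its 44 cells Tbx5 reached 106 CPM (interval 90.7 to 123), against 9.82 in cardiomyocyte-like cells, and was seen in 36.6% of thinned cells against 3.86%. Irx4 had 0 UMIs among 1623277, for which the exact interval ends at 2.27 CPM, against 14.9 in cardiomyocyte-like cells. Irx3 was at 28.3 CPM, Mef2c at 252, Nkx2-5 at 123 and Gata4 at 36.3. The cells carried the names AFNCM (17 cells), NFNCM (18), NCM0 (7), NF (1) and NF0 (1), so none of the co-culture names stood alone in this cluster.

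Among cardiomyocyte-like cells, AFNCM and NFNCM wells lay in different clusters. Of 187 AFNCM cells, 127 were in cluster 8, which was led by Sprr2 genes with the interferon-induced Iigp1 and Igtp, 36 in cluster 1 and 24 in cluster 7. Of 328 NFNCM cells, 285 were in cluster 1, 43 in cluster 7 and 0 in cluster 8. Each name had 3 numbered sets of wells, which are sets on 1 chip and not replicates that the labels describe. The values of both names are therefore descriptions of this chip.

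Tbx20 differed most. The AFNCM sets had 81.7, 74.8 and 78.4 CPM and the NFNCM sets 154, 204 and 147, so all AFNCM sets were lower, and the log2 ratio of the sums was -1.12 (interval -1.26 to -0.98). NCM0 wells stood higher still, at 282 CPM. Nkx2-5 had 92.7, 74.1 and 86.8 CPM in AFNCM and 138, 110 and 122 in NFNCM (log2 ratio -0.55, interval -0.69 to -0.40). Irx3 had 137, 128 and 82.8 in AFNCM and 151, 166 and 163 in NFNCM (-0.50, interval -0.63 to -0.38), and 87.6 in NCM0. Mef2a had 397, 410 and 300 in AFNCM and 459, 463 and 411 in NFNCM (-0.27, interval -0.35 to -0.20).
These 4 factors were lower in every AFNCM set than in every NFNCM set, which held for 6.38% of 7778 genes. Mef2c was the 1 factor that was higher in every AFNCM set, with 151, 130 and 160 CPM against 118, 100 and 121 (0.37, interval 0.25 to 0.50), where 11.0% of genes were.

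For the other 5 factors the sets overlapped. Gata6 had 40.0, 43.6 and 54.4 CPM in AFNCM and 58.7, 85.1 and 53.9 in NFNCM, and Gata4 94.4, 68.1 and 115 against 93.9, 82.9 and 107. Hand2 had 140, 58.2 and 56.2 against 70.0, 63.1 and 58.0, the first AFNCM set being far above the rest. Tbx5 had 4.05, 18.8 and 1.46 against 4.61, 5.02 and 7.03, and NCM0 wells 20.1. Irx4, the factor called higher in bulk, had 9.27, 21.6 and 15.7 against 18.5, 19.8 and 12.3, a log2 ratio of -0.01 with an interval from -0.37 to 0.35.

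Because cluster 8 held AFNCM cells and no NFNCM cells, the ratios were also computed from clusters 1 and 7 alone, with 60 AFNCM and 328 NFNCM cells. Tbx20 was then at -0.88, Nkx2-5 at -1.36, Irx3 at -0.78 and Mef2a at -0.66 on the log2 scale, each in the direction it had with cluster 8. Gata4 went from -0.04 to -0.60, Gata6 from -0.50 to -0.36 and Tbx5 from 0.63 to 0.07. Mef2c was at -0.21, Hand2 at -0.10 and Irx4 at 1.11, each with the opposite sign. Tbx20 had 187 CPM in cluster 1, 222 in cluster 7 and 73.4 in cluster 8. Over all kept wells of a name, the fibroblast markers summed to 3202 to 3734 CPM in the AFNCM sets and 1188 to 2694 in the NFNCM sets, the endothelial markers to 254 to 344 and 25.2 to 161, and the cardiomyocyte markers to 30846 to 35765 and 34192 to 43020. Over all kept wells 4 factors (Gata6, Nkx2-5, Tbx20 and Irx3) were lower in every AFNCM set, where 7.11% of genes were, and 0 were higher, where 15.8% were. The part of these other cells in the ratios over all kept wells was not tested.

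The bulk and single-cell values of co-cultured cardiomyocytes were set side by side. For Tbx20, Nkx2-5, Irx3 and Mef2a, both imCM-AF libraries were above both imCM-NF libraries in bulk. For the same factors all AFNCM sets were below all NFNCM sets among cardiomyocyte-like single cells. The bulk libraries cannot be limited to cardiomyocyte-like cells in this way. Fibroblast markers went opposite ways: 15517 and 17004 CPM in imCM-NF against 10798 and 8549 in imCM-AF in bulk. Over all kept wells they summed to 1746 CPM in NFNCM and 3523 in AFNCM. Endothelial markers likewise were lower in imCM-AF and higher in AFNCM (295 CPM against 83.0 in NFNCM). The summed macrophage markers were lower with adult fibroblasts in both. The part of these markers in the contrast was not tested. Over all kept wells, Tbx20, Nkx2-5, Irx3 and also Gata6 were lower in every AFNCM set, and the Mef2a sets overlapped. Mef2c was higher with adult fibroblasts in both, although its single-cell ratio was -0.21 without cluster 8 and 0.06 over all kept wells. Gata6 was lower in both (single-cell log2 ratio -0.50, interval -0.70 to -0.31), with overlapping sets of wells among cardiomyocyte-like cells. The bulk difference was significant for Mef2c and Irx3 on adjusted p and not for Tbx20, Mef2a and, by the edgeR fit with TMM scaling, Nkx2-5. Whether the bulk and single-cell differences differ was not tested, since the assays share no replicate unit.

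**Figure D5:**
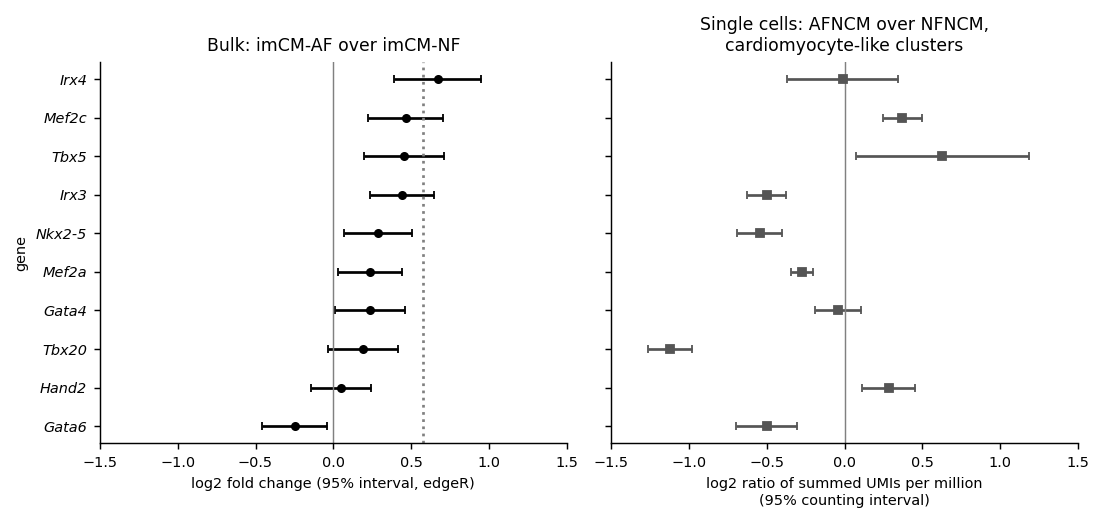
Log2 ratio of each factor with adult over neonatal fibroblasts in bulk (imCM-AF over imCM-NF, 95% interval of the edgeR fit) and in cardiomyocyte-like single cells (AFNCM over NFNCM, exact interval for counting error only). Tbx20, Nkx2-5, Irx3 and Mef2a lie above 0 in bulk and below 0 in single cells, Mef2c lies above 0 and Gata6 below 0 in both, and the dotted line marks the fold threshold of 0.58.

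Fibroblast-like AF and NF cells gave 0 and 1 UMIs of Irx4, 19 and 3 of Nkx2-5, and 5 and 16 of Tbx5, which is too few for a comparison. The fibroblast-like cells of both names lay in different clusters, 160 of 163 AF cells in cluster 3, and 87 and 92 of 179 NF cells in clusters 2 and 5. Gata4 had 48.1 CPM in AF and 33.8 in NF (log2 ratio 0.51, interval 0.25 to 0.77), Mef2a 177 and 117 (0.60, interval 0.46 to 0.74) and Hand2 55.4 and 39.4 (0.49, interval 0.25 to 0.73). Tbx20 had 133 and 150 (-0.18) and Gata6 97.9 and 93.4 (0.07, interval -0.10 to 0.23). With no upper limit on UMIs the ratio was 0.21 (interval -0.11 to 0.55) for Gata4 and 0.15 (interval -0.10 to 0.42) for Hand2, and at resolution 2 it was 0.30 for Gata4, 0.23 (interval -0.03 to 0.49) for Hand2 and -0.48 for Tbx20. The highest fibroblast-like levels of Tbx20 and Gata6 were in NF0 wells, at 286 and 128. AF0 and NF0 wells lay in different clusters, and over all kept wells AF0 had 65.2 CPM of Gata6 against 118 in NF0, 173 against 276 of Tbx20 and 6.32 against 32.5 of Mef2c.
Single wells set some low values: 58.3% of the Nkx2-5 UMIs and 60.0% of the Tbx5 UMIs of NF wells came from 1 well each, as did 65.3% of the Tbx5 UMIs of fibroblast-like AFNCM cells.

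Co-detection was counted as the number of the 10 factors with a UMI in a cell thinned to 5000 UMIs. Cardiomyocyte-like AFNCM cells held 2.66 ± 1.35 factors (SD over 172 cells), NFNCM cells 2.98 ± 1.30 (289 cells) and NCM0 cells 2.88 ± 1.48 (182 cells). Fibroblast-like AF cells held 1.32 ± 1.06 (161 cells), NF cells 1.32 ± 0.983 (167 cells) and NF0 cells 1.77 ± 1.16 (222 cells). At least 3 factors were found in 86 of 172 AFNCM cells, in 64.0% of NFNCM and 59.9% of NCM0 cells, and in 13.7% of AF, 11.4% of NF and 23.4% of NF0 cells. None was found in 2.91%, 2.77% and 4.95% of the cardiomyocyte-like and in 26.7%, 22.2% and 13.1% of the fibroblast-like cells, in the same order.

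Over the 16 numbered well groups of the chips, the genes whose levels were most like those of a factor were found among 11753 genes by Pearson's r of log2(CPM + 1). Mef2c was most like the adrenergic receptor Adrb1 (r = 0.98) and Casz1 (r = 0.97), and Irx3 was most like the mitochondrial enzymes Sucla2 (r = 0.98) and Idh3a (r = 0.98). Tbx5 was most like Fam78a (r = 0.96) and Cidea (r = 0.95), and Mef2a was most like Gm12231 (r = 0.97) and the flavoprotein subunit Etfa (r = 0.96). The 16 points share 2 chips, and cardiomyocytes and fibroblasts lie on different chips, so these values describe these groups only.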

How the data were processed

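Bulk RNA-seq files hold raw read counts per gene deposited by the authors, 1 table for 4 libraries; the submitters' processing notes name STAR (version 2.5.2b), featureCounts from Subread (version 1.4.6-p1) and mm10, whereas the study's methods give Subread as the bulk aligner and STAR for single cells. Single-cell files hold UMI counts per gene and well deposited by the authors, 1 chip each, with a report of well names and aligned percent. Bulk counts were tested with edgeR 4.0.16 (R 4.3.3; TMM scaling; genes over 1 CPM in at least 2 libraries), with imCM-NF and imCM-AF taken from the labels. On data simulated for this comparison (14041 genes), edgeR recovered 198 of 200 genes changed by 1.5 on the log2 scale, with 6 false calls. RPKM used the merged length of all GENCODE exons of a gene (GRCm38).

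Wells had at least 500 genes, over 50% aligned and at most 129577 UMIs (mean plus 2 SD). The 85 and 79 spike-in columns were dropped, and the 34 mitochondrial columns were left out of gene counts. Wells were chosen by imaging, and no doublet caller was run. Clusters used 2272 variable genes without the 10 factors, 10 components, 30 neighbours and resolution 1.0 (leidenalg 0.10.2). A marker counted as high at 33.3% or more of its highest cluster level. A cluster took the name of the list with most of its markers high, provided that list's first gene was high. Both limits were set after seeing the data. Clusters of low UMI totals with no marker among their leading genes stayed unnamed.

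All 10 factors are named, with the other factors that were called or are their relatives, the called targets and up to 6 others, and the 2 most alike genes for up to 5 factors, of which those of Nkx2-5 are not reported here. The factors and gene lists were chosen with earlier results of these data known. Alternatives changed the scaling, filter, test (DESeq2 1.42.0, limma-voom 3.58.1), fold threshold, replicate block, libraries, wells, resolution and depth. The crossed block and the ratios without cluster 8 were chosen after seeing the data.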

Additional observations from a re-analysis of the deposited data

Results flagged for a closer look

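For 4 factors both bulk libraries with adult fibroblasts lay above both with neonatal fibroblasts, while every AFNCM set of wells lay below every NFNCM set among cardiomyocyte-like cells. Of all genes 66.0% did not overlap between the groups in bulk, in either direction, and 6.38% were lower in every AFNCM set. The share of genes going opposite ways in both assays is not given here. The single-cell log2 ratios were -1.12 for Tbx20, -0.55 for Nkx2-5, -0.50 for Irx3 and -0.27 for Mef2a, beside bulk log2 fold changes of 0.19, 0.29, 0.44 and 0.24. None of these bulk changes was called. The adjusted p was 0.200 for Tbx20, 0.0501 for Nkx2-5, 0.00298 for Irx3 and 0.0794 for Mef2a (edgeR). Over all kept wells the sets of Tbx20, Nkx2-5 and Irx3 did not overlap, and those of Mef2a did. Summed fibroblast and endothelial markers were lower with adult fibroblasts in bulk and higher over all kept AFNCM wells, and their part was not tested. The difference between the assays was not tested, and the numbered sets are not replicates that the labels describe.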

How the results depend on the processing

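In bulk, 1564 genes and 1 of the 10 factors were called. On adjusted p alone the counts were 3789 genes and 4 factors, and at a log2 fold change over 1 they were 565 genes and 0 factors (Irx4 lay below that limit). Leaving out 1 library gave 879 to 1929 genes and 0 to 3 factors, with the lone library of a group assumed to vary like the others. The lowest counts came without imCM-NF replicate 2 (879 genes, 0 factors), and 988 genes were called without imCM-AF replicate 2. Other scalings, filters and tools gave 1078 (DESeq2) to 1704 genes (no filter) and 1 factor each. Under DESeq2 the adjusted p of Tbx5 was 0.0514, within 8.34e-05 to 0.268 over the fits other than the crossed pairing. All 10 factors kept the sign of their bulk log2 fold change in every alternative run.

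With the replicate block 1430 genes and 1 factor were called. Same-numbered libraries did not deviate together (r = -0.176 over 14041 genes), so the numbers were not taken as pairs. A crossed pairing gave 1668 genes and 1 factor.

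In single cells, the ratio of AFNCM to NFNCM kept its sign for all 10 factors at resolutions 0.5 and 2, with no UMI limit and over all kept wells, and for 7 of 10 without cluster 8. The ratio of cardiomyocyte-like to fibroblast-like cells kept its sign for 9 of 10 with no UMI limit and for all 10 otherwise. With cells thinned to 10000 UMIs or not thinned, 36 of 40 shares of cells moved by more than their interval. The cause of the other changes was not tested. The 2 libraries of a bulk group limit precision, and 1 chip per cell kind leaves single-cell values without a replicate.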
